A study of Mus musculus with 9 samples.

Results

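The genes described here are Fcrls and 6 genes of the Fc receptor system, namely Fcgr1, Fcgr3, Fcgr4, Fcer1g, Fcgr2b and Fcgrt. They were taken by symbol from the deposited table, so they are 7 of 24607 genes in all, and all 7 were among the 16328 genes with enough signal to be tested. RNA was sequenced from mouse macrophages grown from bone marrow with macrophage colony-stimulating factor (M-CSF, 50 ng/ml), in 9 libraries of 3 groups. The groups were macrophages kept alone (monoculture), macrophages kept with neurons from dorsal root ganglia (DRG), which house sensory nerve cells (co-culture), and macrophages given transforming growth factor beta (TGF-β, 0.02 ng/ml), with 3 libraries each. All groups carried the genotype CX3CR1-gfp/+, in which 1 copy of the fractalkine receptor locus carries green fluorescent protein, and all are labelled 5 d. Triplicates came from 3 mice, per the series' design text. Whether the same 3 mice served every group, their age and the origin of the neurons are not given in the sources used here. Cells were sorted on CD11b and on CD64, and CD64 is the protein of Fcgr1, so a gene of the set was also part of the gate. The series title concerns the imprinting of macrophage identity by sensory neurons through TGF-β, and the comparisons below describe the Fc receptor genes within it.

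Fc receptors bind the constant part of antibodies and couple them to phagocytes. Of the receptors for IgG in the mouse, the products of Fcgr1, Fcgr3 and Fcgr4 are activating: each pairs with the common γ chain encoded by Fcer1g, whose ITAM motif recruits the kinase Syk. The product of Fcgr2b is the inhibitory member, with an ITIM motif in its own tail that recruits the lipid phosphatase SHIP1 (Inpp5d). Fcgrt encodes the heavy chain of the neonatal Fc receptor FcRn, which pairs with β2-microglobulin (B2m) and returns IgG and albumin from endosomes to the cell surface. Fcrls encodes a scavenger-type protein named for its resemblance to Fc receptors, and it is best known as a marker of microglia, the macrophages of the brain.

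Depth ranged from 46.8 to 308.8 M reads per library. Every value in the table was a whole number of reads divided by 1 size factor per library, and these values are called normalized counts. The 7 genes had between 336 and 307058 reads each in a library, so none was limited by low counts. All 8 macrophage markers listed were detected, and their summed level was 961094 to 1091520 normalized counts in monoculture, 1160380 to 1341220 with TGF-β and 1212630 to 1571670 in co-culture. Lyz2 made up most of that sum (605012 in monoculture, 961784 in co-culture); it and Mertk rose in co-culture against monoculture, Emr1 (from 89055 to 55229) and Cd14 (from 25539 to 12269) fell, and the other 4 did not pass. Markers of other cells that carry Fc receptors were low or had no row. The B cell gene Pax5 and the mast cell genes Fcer1a and Ms4a2 have no row in the table used here, which holds no gene that is at 0 in all 9 libraries. The 4 B cell markers with a row together reached at most 100.8 normalized counts, the 7 NK and T cell markers 6.49, the 6 neutrophil markers 65.6 and the 5 dendritic cell markers 49.2. The mast cell list summed to 92.1 to 199.9 in monoculture, 61.4 to 100.5 with TGF-β and 2.77 to 7.31 in co-culture, and Kit (145.5 on average in monoculture and 80.3 with TGF-β) fell in co-culture against monoculture. Fibroblast markers were higher in co-culture: the 8 genes summed to 5763 to 8305 there, against 34.1 to 103.9 in monoculture and 19.5 to 94.0 with TGF-β, and all 6 tested rose. Col3a1, Dcn, Pdgfrb and Fbln2 averaged under 10 in both other groups. They met the filter on low values (at least 10 in at least 3 libraries) in co-culture, which favored a rise. Of 6 endothelial markers 4 were tested: Pecam1 (from 41.0 to 299), Cdh5 (from 101.4 to 227) and Stab2 (from 89.9 to 205) rose in co-culture against monoculture and Kdr (from 2052 to 1376) fell, while the sum was 2101 to 2539 in monoculture, 1273 to 1404 with TGF-β and 1863 to 2335 in co-culture. Of 8 glial markers 5 rose, Sox10 and Ngfr among them (146.8 and 234 in co-culture, at most 0.258 elsewhere), and Mbp and Fabp7 fell. Sox10 and Ngfr passed the same filter through co-culture. The glial sum was 6050 to 6932 in monoculture, 5745 to 6320 with TGF-β and 4644 to 5138 in co-culture, most of it Mbp. The 11 sensory neuron markers summed to 121.9 to 235.9 in co-culture, 41.1 to 81.2 in monoculture and 30.6 to 43.2 with TGF-β. Of the 3 tested, Tubb3 rose in co-culture against monoculture (from 27.0 to 92.4), and Prph and Avil did not pass. In these bulk libraries more cells of a type and more RNA per cell cannot be told apart.

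The start regions of the 2 genes that rose under both treatments, Fcrls and Fcgr2b, are shown beside that of Fcgr3, an activating receptor gene that did not pass the test with TGF-β. Each run is the 300 bases from 250 before to 50 after a RefSeq start (GRCm38.p6, the mm10 build), all on the minus strand and written 5′ to 3′. They lie at chr3:87263475-87263774 for Fcrls, chr1:170976022-170976321 for Fcgr2b and chr1:171059354-171059653 for Fcgr3. Capitals mark CAGAC or its reverse complement GTCTG, the short element that SMAD proteins, the transcription factors of the TGF-β pathway, can bind.
Fcrls: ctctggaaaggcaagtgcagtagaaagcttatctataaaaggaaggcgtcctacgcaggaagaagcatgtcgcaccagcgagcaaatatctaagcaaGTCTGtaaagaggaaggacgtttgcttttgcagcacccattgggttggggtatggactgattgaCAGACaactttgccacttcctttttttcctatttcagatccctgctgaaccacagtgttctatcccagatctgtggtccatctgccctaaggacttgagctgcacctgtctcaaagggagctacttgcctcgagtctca
Fcgr2b: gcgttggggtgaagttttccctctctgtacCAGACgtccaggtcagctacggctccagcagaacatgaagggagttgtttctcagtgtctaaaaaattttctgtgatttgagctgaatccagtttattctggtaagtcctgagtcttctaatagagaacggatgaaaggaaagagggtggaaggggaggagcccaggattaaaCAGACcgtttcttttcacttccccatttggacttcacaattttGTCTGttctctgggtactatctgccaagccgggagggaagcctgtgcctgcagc
Fcgr3: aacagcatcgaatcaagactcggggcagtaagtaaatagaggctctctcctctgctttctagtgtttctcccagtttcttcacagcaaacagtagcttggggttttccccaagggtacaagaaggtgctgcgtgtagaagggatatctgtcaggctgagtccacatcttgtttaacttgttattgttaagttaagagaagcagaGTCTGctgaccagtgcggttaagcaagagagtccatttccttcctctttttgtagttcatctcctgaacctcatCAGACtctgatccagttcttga
The element occurred 2 times in the Fcrls run, at positions -153 and -89 from the start, and 3 times in the Fcgr2b run, at positions -220, -47 and -4. It occurred 2 times in the Fcgr3 run as well, 1 time in that of Fcer1g and 0 times in those of Fcgr1, Fcgr4 and Fcgrt. Another RefSeq start of Fcgr3, with its run at chr1:171059345-171059644, also gave 2. The annotated Fcgr2b and Fcgr3 genes reach further upstream, to 170976547 and 171064935, and starts there were not examined. Of 32851 start regions of this length, 49.6% held it at least once, 16.2% at least 2 times and 3.90% at least 3 times. A match of 5 letters is a description of the sequence and not a binding site.

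Fcrls had the widest range of the 7 genes. It stood at 546, 756 and 552 normalized counts in monoculture 1 to 3, at 5828, 6014 and 4988 with TGF-β and at 106390, 108728 and 96342 in co-culture. The 3 groups did not overlap, and each step was far larger than the spread within a group. As a share of all normalized counts, its transcripts went from 0.000566% in monoculture to 0.00491% with TGF-β and 0.0969% in co-culture. Ranked by level per kb of exon among 24335 annotated genes, it moved from place 8324 in monoculture to place 1840 with TGF-β and place 71 in co-culture. The difference between co-culture and TGF-β, a log2 fold change of 4.21 ± 0.12 (SE; limma adjusted p = 5.27e-11), was 18.5-fold. Only 3 of the 16328 tested genes had a larger fold change than Fcrls in co-culture against monoculture (log2 7.38), and 2 had a larger one with TGF-β (log2 3.17). The gene (ENSMUSG00000015852) lies on chromosome 3 of mm10.

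**Figure D1:**
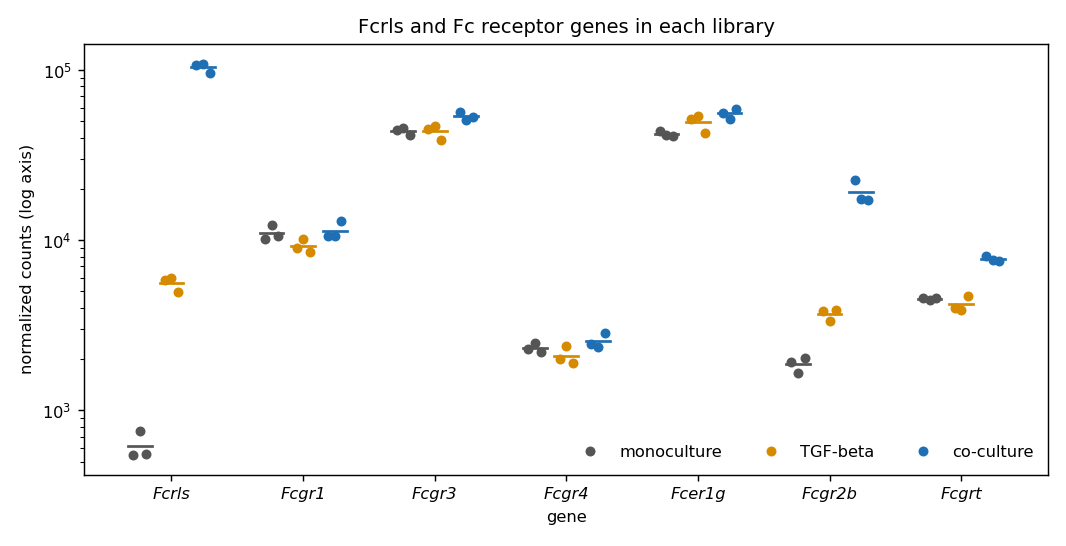
Normalized counts (log axis) of the 7 genes in each of the 9 libraries; points are libraries and bars are group means. Fcrls and Fcgr2b form 3 separate levels, Fcgrt is higher in co-culture, and Fcgr1 and Fcgr4 overlap between monoculture and both other groups.

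The inhibitory receptor gene Fcgr2b rose in the same order. Its values were 1911, 1656 and 2027 in monoculture 1 to 3, 3819, 3354 and 3875 with TGF-β and 22491, 17525 and 17131 in co-culture, again with no overlap between groups. Co-culture 1 was the highest library. Against monoculture the log2 fold change was 3.34 ± 0.11 in co-culture (SE; limma adjusted p = 1.21e-10), or 10.1-fold, and 0.98 ± 0.11 with TGF-β (adjusted p = 3.50e-04), or 1.97-fold. Co-culture was above TGF-β by 2.36 ± 0.11 (adjusted p = 7.15e-09). Fcgr2b (ENSMUSG00000026656) lies at 170958617 to 170976547 on chromosome 1 of mm10, minus strand. Endothelium can express Fcgr2b. Of its 4 tested markers 3 rose in co-culture against monoculture and Kdr, the most abundant of them, fell (levels given above). The part of endothelium in the rise of Fcgr2b was not tested. The splice forms of Fcgr2b, which differ in the tail, were not separated in the deposited gene values.

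The activating receptor genes differed little between groups. Fcgr1, the gene of the high-affinity IgG receptor CD64, stood at 10098, 12236 and 10573 normalized counts in monoculture, 8998, 10104 and 8551 with TGF-β and 10532, 10596 and 12921 in co-culture. The co-culture and monoculture values interleaved, and their log2 difference was 0.05 ± 0.10 (95% interval -0.18 to 0.27; limma adjusted p = 0.778). The gate on CD64 acted on the protein of this gene, and its part in these levels was not tested. TGF-β libraries had a log2 difference from monoculture of -0.25 ± 0.10 (adjusted p = 0.269), and co-culture one from TGF-β of 0.30 ± 0.10 (adjusted p = 0.0513). The latter passed with edgeR (0.0480) and DESeq2 (0.0391) on the recovered reads, and without monoculture 2 (0.0446) or TGF-β 2 (0.0339).

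Fcgr3, which encodes the low-affinity activating receptor, was the most abundant of the 3 activating receptor genes per kb. It stood at 44515, 45212 and 41617 normalized counts in monoculture, 44890, 46960 and 38569 with TGF-β and 56328, 50666 and 52539 in co-culture. All co-culture libraries were above all others. The rise over monoculture was 0.28 ± 0.09 on the log2 scale (limma adjusted p = 0.0328) and that over TGF-β 0.29 ± 0.09 (adjusted p = 0.0307), or 1.21-fold and 1.23-fold. The first was lost when any of the 6 libraries of its groups was left out (adjusted p = 0.0550 to 0.149), and the second without co-culture 1, 2 or 3 or TGF-β 1 or 3 (0.0572 to 0.146). With TGF-β against monoculture the log2 difference was -0.01 ± 0.09 (95% interval -0.21 to 0.18; adjusted p = 0.970).

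Fcgr3 and Fcgr2b share sequence, which bears on how their reads could be assigned. Of the 1733 different windows of 50 bases in the annotated Fcgr3 transcripts, 166 also occur in Fcgr2b transcripts (9.58%), which is 2.92% of the Fcgr2b windows. Of all 5685 Fcgr2b windows, 249 (4.38%) occur in some other gene. The antisense gene Gm38204 overlaps Fcgr2b by 155 exon bases and had at most 5.98 normalized counts. The other 5 genes shared no such window with any other gene. The longest common run, within the coding sequence of both and spanning 2 exons, has 129 bases.
Shared run: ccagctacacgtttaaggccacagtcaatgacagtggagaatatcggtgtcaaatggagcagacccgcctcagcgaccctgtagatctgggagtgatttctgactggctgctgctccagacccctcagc
It lies between 170966674 and 170968081 on chromosome 1 in Fcgr2b and between 171054167 and 171057792 in Fcgr3. How reads from such runs were assigned is not given in the sources used here, and its part in the Fcgr3 difference was not tested.

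Fcgr4, the gene of an activating receptor of intermediate affinity found on monocytes and neutrophils, had 2302, 2475 and 2203 normalized counts in monoculture, 2005, 2373 and 1902 with TGF-β and 2453, 2349 and 2846 in co-culture. The groups overlapped in all 3 comparisons. Its log2 differences were 0.13 ± 0.11 for co-culture (95% interval -0.10 to 0.36; limma adjusted p = 0.414) and -0.16 ± 0.11 for TGF-β (adjusted p = 0.554) against monoculture. Co-culture against TGF-β gave 0.28 ± 0.11 (adjusted p = 0.0692), which passed without TGF-β 2 (adjusted p = 0.0237). The gene lies between Fcgr2b and Fcgr3 on chromosome 1, 42.4 kb from the former and 21.4 kb from the latter.

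Fcer1g, the shared signaling chain, stood at 43850, 41326 and 40571 normalized counts in monoculture, 51519, 53561 and 42782 with TGF-β and 56048, 51497 and 59184 in co-culture. The co-culture libraries were all above the monoculture ones, and the rise was 0.41 ± 0.10 (limma adjusted p = 0.00574), or 1.32-fold. The TGF-β libraries spread over both ranges, with a log2 difference of 0.23 ± 0.10 from monoculture (adjusted p = 0.291), which passed only without TGF-β 3 (adjusted p = 0.0479). Tyrobp, the gene of the sister chain DAP12, rose by a similar 0.37 ± 0.11 in co-culture (adjusted p = 0.0164). With TGF-β its difference was 0.36 ± 0.11 (adjusted p = 0.105).

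Fcgrt was higher in co-culture and not with TGF-β. Its values were 4584, 4475 and 4556 normalized counts in monoculture, 4014, 3909 and 4711 with TGF-β and 8020, 7629 and 7554 in co-culture. The co-culture libraries stood clear of the other 6. The rise was 0.77 ± 0.08 over monoculture (limma adjusted p = 6.74e-06), or 1.70-fold, and 0.88 ± 0.08 over TGF-β (adjusted p = 2.91e-06). TGF-β against monoculture gave -0.11 ± 0.08 (95% interval -0.29 to 0.07; adjusted p = 0.598). Fibroblast markers and 3 of 4 tested endothelial markers (levels given above) were higher in the same libraries, while Kdr fell against monoculture. Endothelium is a known site of FcRn, and the part of these cell types in the rise of Fcgrt was not tested. B2m, the partner chain, did not pass in co-culture (-0.08 ± 0.12, adjusted p = 0.658). The log2 ratio of Fcgrt to B2m was -3.82 ± 0.24 in monoculture, -4.03 ± 0.27 with TGF-β and -2.97 ± 0.08 in co-culture (SD, n = 3 each; exact permutation test over 3 groups, p = 0.0107).

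**Figure D2:**
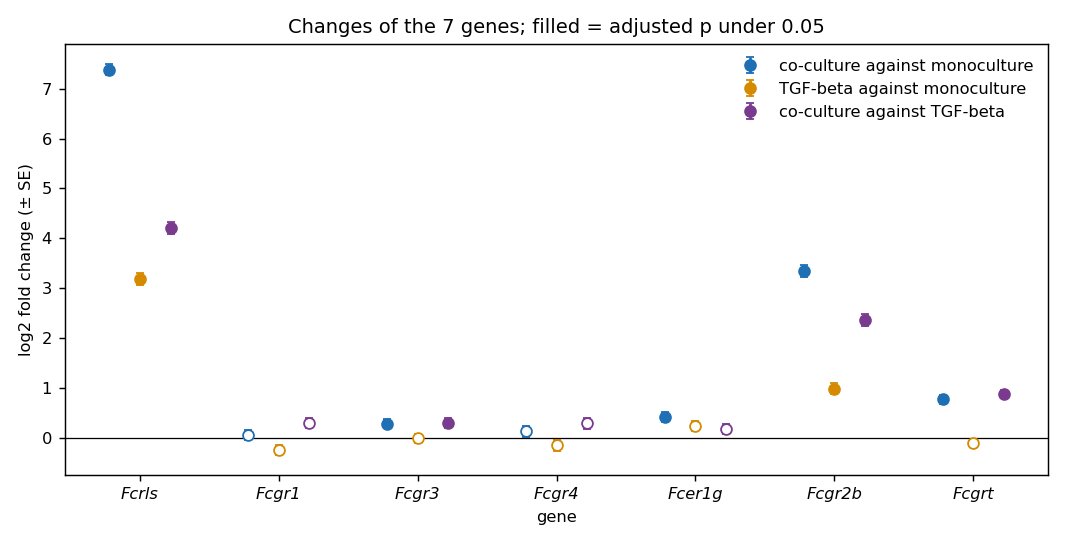
Log2 fold changes with SE of the 7 genes in the 3 comparisons; filled points have an adjusted p under 0.05. Fcrls and Fcgr2b are filled in all 3 comparisons, Fcgrt and Fcgr3 in those with co-culture.

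Counted over the set, 5 of the 7 genes rose and 0 fell in co-culture against monoculture (median log2 fold change 0.41), where 30.8% of all tested genes passed, 15.9% higher and 15% lower (median 0.03). With TGF-β against monoculture 2 rose and 0 fell (median -0.01), where 2.52% of all tested genes passed, 1.13% higher and 1.39% lower (median -0.01). In co-culture against TGF-β 4 rose and 0 fell (median 0.30), where 25.3% passed, 13.4% higher and 11.9% lower (median 0.01). Any pair of these comparisons shares the libraries of a group (monoculture, co-culture or TGF-β), so they are not independent of each other. Groups did not overlap for 5, 2 and 5 of the 7 genes in these comparisons, against 45%, 16.9% and 41% of all tested genes.

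Set against each other within a library, the activating genes were lower relative to the inhibitory gene Fcgr2b, whose own rise is given above. The ratio of Fcgr3 to Fcgr2b counts was 23.3, 27.3 and 20.5 in monoculture, 11.8, 14.0 and 9.95 with TGF-β and 2.50, 2.89 and 3.07 in co-culture. That of Fcgr1 to Fcgr2b was 5.28, 7.39 and 5.22 in monoculture, 2.36, 3.01 and 2.21 with TGF-β and 0.468, 0.605 and 0.754 in co-culture. The groups formed 3 separate levels in each case.

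For Fcgr4 the ratio was 1.20, 1.49 and 1.09 in monoculture, 0.525, 0.707 and 0.491 with TGF-β and 0.109, 0.134 and 0.166 in co-culture. The γ chain gene Fcer1g gave 22.9, 24.9 and 20.0, then 13.5, 16.0 and 11.0, then 2.49, 2.94 and 3.45. In log2 units the 4 ratios were lower in co-culture than in monoculture by differences of -2.94 to -3.30 and lower with TGF-β by -0.76 to -1.23. An exact permutation test over the 3 groups gave p = 0.00357 for each of the 4 ratios (also 0.00357 after Benjamini-Hochberg adjustment), the smallest value 3 groups of 3 allow. Each pair of groups gave p = 0.10 in a two-sided exact permutation test, which is the smallest that 3 against 3 allow. The 4 ratios share Fcgr2b as denominator and are not independent of each other. As 0 of the 7 genes were called lower against monoculture, the lower ratios mostly restate the rise of Fcgr2b.

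**Figure D3:**
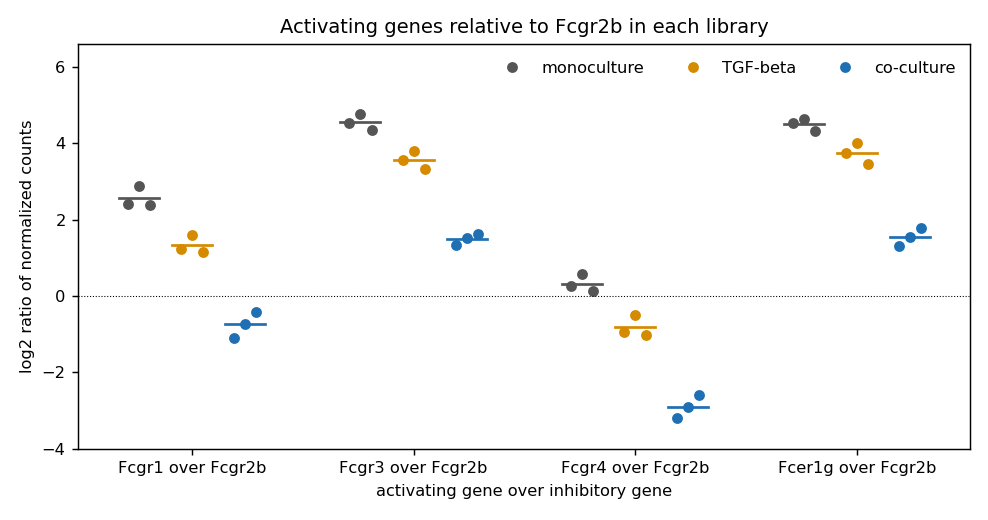
Log2 ratio of the normalized counts of each activating gene to Fcgr2b in every library; points are libraries and bars are group means. All 4 ratios are highest in monoculture, lower with TGF-β and lowest in co-culture, with no overlap between groups.

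Levels of different genes were compared per kb of merged exon. In monoculture the order was Fcer1g (47958 ± 1965 normalized counts per kb), Fcgr3 (25220 ± 1098), Fcgr1 (4237 ± 434), Fcgrt (2159 ± 26.8), Fcgr4 (1852 ± 110), Fcgr2b (322 ± 32.7) and Fcrls (265 ± 51.4; SD, n = 3). The last 2 overlapped in range. With TGF-β Fcrls was 4th at 2404 ± 234, overlapping with Fcgrt at 2004 ± 207, which overlapped with Fcgr4 at 1667 ± 197, while Fcgr2b was last at 636 ± 49.3.

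In co-culture Fcrls was second at 44482 ± 2820, below Fcer1g at 63589 ± 4423 and above Fcgr3 at 30632 ± 1661. Fcgr1 (4384 ± 526), Fcgrt (3679 ± 119) and Fcgr2b (3290 ± 516) followed, the last 2 overlapping, and Fcgr4 was lowest at 2030 ± 209. Fcgr2b was thus 6th of 7 in monoculture and in co-culture, on this length. Its place in co-culture depends on the length used, since its annotated exons merge to 5.79 kb while its longest transcript has 3544 bases: by transcript or coding length it stood 4th in co-culture, above Fcgr1 and Fcgrt.

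**Figure D4:**
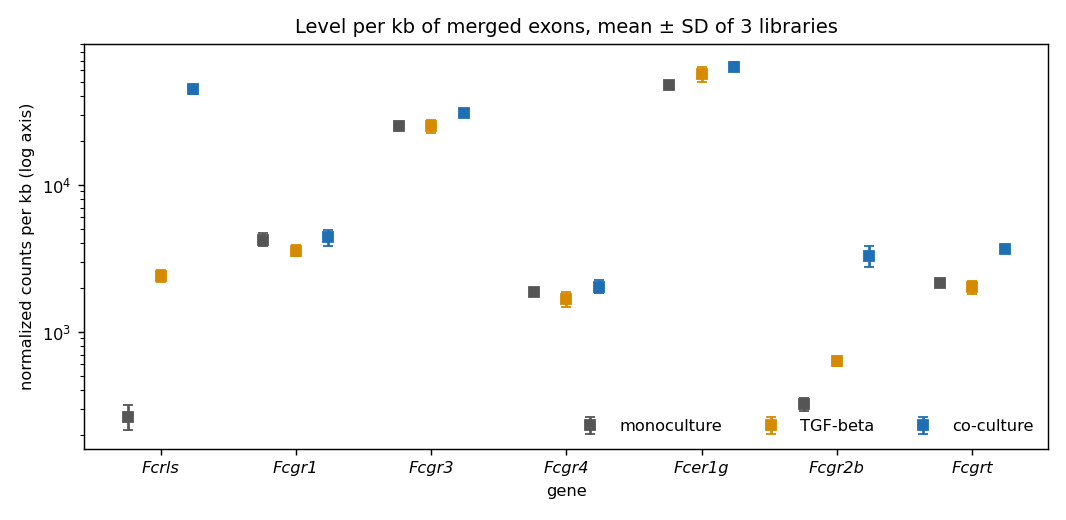
Normalized counts per kb of merged exon (log axis), mean and SD of 3 libraries per group. Fcrls spans from the lowest level in monoculture to the second highest in co-culture.

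The genes most like Fcrls and Fcgr2b across the 9 libraries were sought among 7996 genes with a mean of at least 1000 normalized counts, by Pearson's r of log2 values. The 9 libraries form 3 groups, so r mainly reads the order and spacing of the groups and is given as a description. For Fcrls the closest were the complement gene C1qc (r = 0.998), Abi3 (0.997), C1qa (0.996), Pmepa1 (0.995), a membrane protein gene that responds to TGF-β, and Arhgap24 (0.995). C1qc had 42233 ± 2761 normalized counts in monoculture, 68811 ± 4538 with TGF-β and 131241 ± 3624 in co-culture. For Fcgr2b they were the microglial purinergic receptor gene P2ry12 (0.998), the raft protein gene Rftn1 (0.997), Rhoq (0.996), Arhgap19 (0.996) and Peli2 (0.996). P2ry12 had 747 ± 49.4, 1387 ± 164 and 5251 ± 399.5 normalized counts in the 3 groups in the same order. The mean of at least 1000 was taken over all 9 libraries. Abi3, Pmepa1 and Peli2 averaged under 1000 in monoculture and with TGF-β. They met that mean through co-culture, so the choice of genes favored those high there. Fcrls and Fcgr2b had r = 0.980 with each other. With Fcrls and Fcgr2b in turn, Fcgrt had 0.827 and 0.908, Fcer1g 0.853 and 0.806, and Fcgr3 0.764 and 0.793. Fcgr4 had 0.387 and 0.422, and Fcgr1 was lowest with 0.183 and 0.226.

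Other genes for Fc receptors and Fc receptor-like proteins were few. Of 12 listed, 7 were in the table and 4 were tested, and 2 rose and 2 fell in co-culture against monoculture (median log2 fold change 0.30), with 0 called for TGF-β. Over all tested genes 30.8% passed in co-culture against monoculture, and edgeR called 3 of the 4. Fcrlb, an intracellular Fc receptor-like protein gene, rose from 2.09 ± 2.36 to 67.3 ± 12.9 normalized counts (SD, n = 3; log2 fold change 2.68 ± 0.34, limma adjusted p = 2.77e-05), and Fcrla from 3.35 ± 3.98 to 15.8 ± 4.27 (0.98 ± 0.33, adjusted p = 0.0379). Both passed the filter on low values through co-culture. Fcrl1, better known from B cells, fell from 1509 ± 70.9 to 879 ± 63.2 (-0.78 ± 0.11, adjusted p = 6.65e-05). Trim21, the cytosolic antibody receptor, fell by 0.37 ± 0.09 on the log2 scale (adjusted p = 0.00417).

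Genes of activating signaling below the receptors mostly rose where they changed. Of 18 tested, 7 rose and 2 fell in co-culture against monoculture (median 0.12) and 0 passed with TGF-β. Over all tested genes 15.9% rose and 15% fell in the former and 2.52% passed in the latter, so 0 of 18 is near that share. Lcp2, the adaptor SLP-76, rose from 9212 to 17478 normalized counts (0.93 ± 0.09, limma adjusted p = 3.55e-06), and the Src-family kinase gene Lyn, which phosphorylates both ITAM and ITIM motifs, from 24937 to 44939 (0.85 ± 0.09, adjusted p = 6.86e-06). The exceptions were the kinase gene Fyn (-0.50 ± 0.08) and the exchange factor gene Vav3 (-0.38 ± 0.07). Syk itself, the kinase that docks on the γ chain, did not pass (-0.19 ± 0.09, adjusted p = 0.121). In co-culture against TGF-β 8 rose and 2 fell (median 0.18; 13.4% and 11.9% of all tested genes), again led by Lyn and Lcp2, and the 2 were Fyn and the adaptor gene Lat2 (-0.35 ± 0.10).

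Genes of inhibitory signaling moved apart. Of 11 tested, 1 rose and 4 fell in co-culture against monoculture (median 0.02), where 15.9% of all tested genes rose and 15% fell. The gene that rose was Inpp5d, the phosphatase SHIP1 that acts at the Fcgr2b tail, from 27933 ± 1899 to 49628 ± 4125 normalized counts (0.83 ± 0.09, limma adjusted p = 8.03e-06). Its relative Inppl1 (SHIP2) fell by 0.84 ± 0.10 on the log2 scale, and the adaptor gene Dok2 from 12845 to 4676 (-1.46 ± 0.09, adjusted p = 2.55e-08). Dok1 (-0.71 ± 0.10) and the ubiquitin ligase gene Cblb (-0.76 ± 0.11) fell as well. The tyrosine phosphatase gene Ptpn6 (SHP-1) did not pass (0.02 ± 0.08, adjusted p = 0.895). With TGF-β 2 fell and 0 rose (median -0.13), namely Dok2 (-0.54 ± 0.09, adjusted p = 0.00544) and Cblb (-0.59 ± 0.11, adjusted p = 0.0115), where 2.52% of all tested genes passed. In co-culture against TGF-β 2 rose and 3 fell, where 25.3% passed, and the 2 were Inpp5d and the ubiquitin ligase gene Cbl (0.38 ± 0.11, adjusted p = 0.0250).

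**Figure D5:**
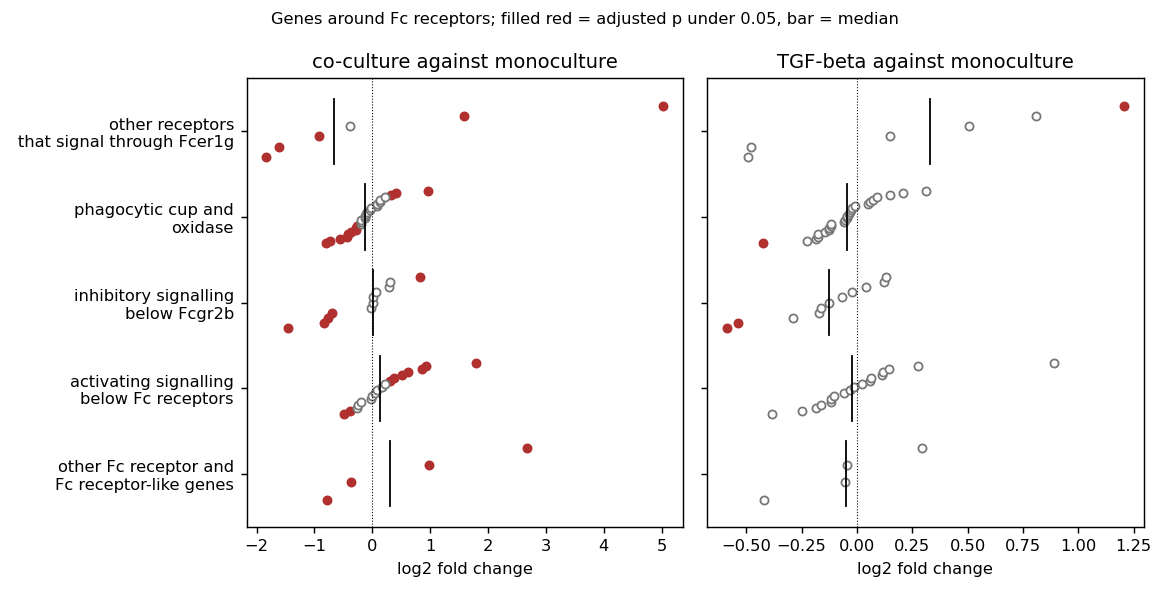
Log2 fold changes of the genes of 5 lists around the Fc receptors, in co-culture and with TGF-β against monoculture (the axes differ in range); filled red points have an adjusted p under 0.05 and bars are medians. In co-culture many genes pass in both directions, and with TGF-β 4 pass.

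In the machinery of the phagocytic cup and oxidase, 3 of 26 genes rose and 9 fell in co-culture against monoculture (median -0.13), and 0 rose and 1 fell with TGF-β. Over all tested genes 15.9% rose and 15% fell in co-culture and 2.52% passed with TGF-β, so the 3 that rose and the 1 with TGF-β are near those shares. The unconventional myosin gene Myo10 fell in co-culture (-0.81 ± 0.09, limma adjusted p = 4.79e-06) and with TGF-β (-0.42 ± 0.08, adjusted p = 0.0157). The genes that rose were the actin-binding substrate of protein kinase C Marcks (0.97 ± 0.12), the phospholipase gene Pld1 (0.40 ± 0.10) and the oxidase subunit gene Ncf1 (0.33 ± 0.08). Coro1a, the actin regulator coronin, fell in co-culture against monoculture (-0.73 ± 0.10) and against TGF-β (-0.62 ± 0.10). The catalytic oxidase subunit gene Cybb did not pass (-0.20 ± 0.11, adjusted p = 0.209).

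Of 6 tested receptors that also signal through the γ chain, 2 rose and 3 fell in co-culture against monoculture (median -0.65), and 1 rose with TGF-β (median 0.33). Over all tested genes 30.8% and 2.52% passed. Clec4n, the fungal lectin receptor Dectin-2, rose from 575 to 18905 normalized counts in co-culture (5.03 ± 0.18, limma adjusted p = 2.27e-09) and to 1334 with TGF-β (1.20 ± 0.18, adjusted p = 0.00435). Lilra5 rose from 4.59 to 33.5 (1.58 ± 0.34, adjusted p = 0.00274). Its monoculture mean was under 10, so it passed the filter on low values through the other groups. Pira2, a paired immunoglobulin-like receptor gene with close copies that could share its reads, fell from 6340 to 1776 (-1.83 ± 0.12, adjusted p = 6.48e-08). Clec4d (-0.93 ± 0.17) and Clec4b1 (-1.61 ± 0.29) fell too.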

How the data were processed

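The deposited values are counts divided by a size factor per library (a signal, the unit the authors left them in); all values came out as whole reads within 0.05 of a read, and 1 read was worth 0.346 to 2.27 normalized counts. Per the submitters' processing notes, bcl2fastq 2.20, STAR 2.7.3, DESeq2 1.24.0, R 3.6.1 and mm10 were used. The counting program, its strand setting and its annotation are not given in the sources used here. Genes with at least 10 normalized counts in at least 3 libraries were tested with limma 3.58.1 (R 4.3.3) on log2(value + 10), in 1 fit of all 9 libraries, with Benjamini-Hochberg adjustment over all tested genes and a threshold of 0.05. Fold changes are on that scale and understate the change of low genes. The limma script was tested on simulated data. P-values measure the spread between these libraries only.

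Alternatives were edgeR 4.0.16 and DESeq2 1.42.0 on the recovered reads, other scaling, pseudocounts and filters, a replicate block and leaving out each library. Lengths came from GENCODE M21 (24335 identifiers matched). The members and gene lists were chosen with earlier results of these data known. From each list the text names the 2 called genes of smallest p per comparison and any called against the rest of the list where 3 or fewer were, plus Syk, Ptpn6, Cybb, Inppl1, Dok1, Clec4d and Clec4b1, which fall outside that rule and were added after their values were seen. For likeness it names the 5 genes of highest r.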

Additional observations from a re-analysis of the deposited data

How the results depend on the processing

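The calls for Fcrls and Fcgr2b in all 3 comparisons, and for Fcgrt and Fcer1g in co-culture against monoculture, kept direction and call under every alternative run. With 1 library left out at a time, the log2 difference of co-culture from monoculture ran from -0.0494 to 0.129 for Fcgr1, where it turned without monoculture 1 (-0.00978) or co-culture 3 (-0.0494), and from 0.24 to 0.31 for Fcgr3. That of TGF-β from monoculture ran from -0.0725 to 0.0695 for Fcgr3, positive without monoculture 2 (0.00934) or TGF-β 3 (0.0695), and from 0.16 to 0.33 for Fcer1g. That of co-culture from TGF-β ran from 0.20 to 0.36 for Fcgr1, 0.21 to 0.35 for Fcgr3 and 0.20 to 0.38 for Fcgr4. Fcgr1 in the last comparison passed with edgeR and with DESeq2 (0.30 each). By coding length the places with TGF-β were 4 for Fcgrt, 5 for Fcrls, 6 for Fcgr2b and 7 for Fcgr4, and by coding length or longest transcript those in co-culture were 4 for Fcgr2b, 5 for Fcgr1 and 6 for Fcgrt. The cause of the other shifts was not tested.

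Over all genes, TGF-β against monoculture gave 412 calls, 846 with DESeq2 and 165 to 935 with a library left out (165 without TGF-β 1, 935 without TGF-β 3, 248 without TGF-β 2, 249 without monoculture 2 and 268 without monoculture 1). Co-culture against TGF-β gave 4128, and 2735 and 2669 without co-culture 1 and 2.

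Libraries with the same number did not deviate together throughout (r from -0.15 to 0.37), so the numbers were not read as pairs. With the replicate block the Fcgrt to B2m difference was 0.85 with p = 0.0556 (exact permutation test within blocks), 1 gene of activating signaling and 2 receptors of the γ chain passed with TGF-β, and no call of the 7 genes changed. The block also took the other Fc receptor genes from 4 calls to 3 in both comparisons with co-culture, and the phagocytic genes from 12 to 11 against monoculture and from 9 to 7 against TGF-β. With 3 libraries a group, small differences such as those of Fcgr1 and Fcgr4 were not resolved, and depth did not limit the 7 genes.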

Other observations

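Chromosomal neighbours of the genes were read as well. Cd5l, which encodes a secreted scavenger protein of macrophages and lies 94.1 kb from Fcrls, went the other way: it had 16547 normalized counts in monoculture, 4175 with TGF-β and 597 in co-culture. Rcn3, 0.769 kb from Fcgrt, rose in co-culture from 92.6 to 235 normalized counts (log2 fold change 1.25 ± 0.24, limma adjusted p = 0.00116).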
